A study of Mus musculus with 10 samples.

Results

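The Hox cluster genes are the members of the HoxA, HoxB, HoxC and HoxD clusters of the mouse. A gene was taken as a member where a transcript cluster of the array carried 1 gene symbol, that of a Hox gene of these clusters, and the cluster with the highest mean over the 10 arrays stood for the gene. This gave 36 members among 22180 genes measured in all. HoxA gave 9 members, HoxB 10, HoxC 9 and HoxD 8. Hoxa11 and Hoxd4 lay on transcript clusters shared with another symbol and are not members.

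The study set hepatocyte-like cells made from mouse embryonic stem cells (ES_HLC, 3 arrays) beside adult hepatocytes (Ad_Hep, 3 arrays) and undifferentiated embryonic stem cells (mESC, 4 arrays). The strain is one for all 3 groups, a C.FVB congenic line with a CAG transgene that makes luciferase and GFP. The CAG promoter is active in most cell types. The labels give a passage under 20 for every sample, the liver cells included, and name no differentiation agent, day, animal age or batch for any of them. The arrays are called biological replicates in the labels, without saying which came from separate cultures or animals, so a p-value here reflects only how far these samples differ among themselves, which may be partly technical.

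Hox genes encode homeodomain transcription factors that set the position of cells along the body axis. In each cluster the genes lie in the order in which they act: low paralogue numbers are used early and towards the head, high numbers late and towards the tail, and the highest also in the limbs and the genital tract. Signals such as retinoic acid, Wnt and Fgf open the clusters in order, Cdx factors activate their middle part, Polycomb complexes keep them silent in embryonic stem cells, and Pbx, Meis and Pknox proteins of the TALE class bind DNA beside the Hox proteins. The liver arises from foregut endoderm, and fibroblasts and other connective tissue cells keep a Hox pattern that reflects where in the body they come from.

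Levels are log2 values, so a difference of 1 is a doubling. Levels of different genes are not set against each other, since each transcript cluster has its own probes. As a stand-in for a level of no expression, the 95th percentile of 1394 odorant and vomeronasal receptor genes was taken, which was 5.02. On every array of the group, 12 of the 36 members lay above it in ES_HLC, 9 in Ad_Hep and 8 in mESC. Over all 22180 genes the shares were 54.4%, 54.7% and 53.8% in the same order of groups. Members at or below it on every array numbered 13 in ES_HLC, 16 in Ad_Hep and 18 in mESC, and 6 members lay at or below it on all 10 arrays. Hox differences near this level are read from signals close to the background.

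Array medians ran from 4.91 to 5.07. Ad_Hep fitted its label by all 10 hepatocyte markers, which rose against mESC. In ES_HLC 3 of those 10 rose against mESC, and 9 of 10 pluripotency markers fell in both ES_HLC and Ad_Hep against mESC. Albumin (Alb), the main plasma protein made by hepatocytes, read 4.85, 5.14 and 10.80 in ES_HLC replicates 1, 2 and 3, against 4.81, 4.67, 4.62 and 5.51 in mESC. Replicates 1 and 2 of ES_HLC lay within the mESC range for this gene, but Ttr, Fgb and Apoa1 were higher on all 3 ES_HLC arrays than on any mESC array. Ttr, a plasma carrier protein, read 9.04, 10.44 and 8.77 in ES_HLC, against 6.31, 6.69, 6.11 and 6.15 in mESC. Of 7 hepatoblast markers, 6 rose in ES_HLC against mESC, among them Afp by 3.75. In the same comparison 6 of 8 extraembryonic endoderm markers rose and 0 fell, and of 7 trophoblast markers 4 rose and 1 fell. Without ES_HLC replicate 1, 5 of 10 hepatocyte, 6 of 7 hepatoblast, 6 of 8 extraembryonic endoderm and 5 of 7 trophoblast markers rose. Of those lists 0 markers then fell, while 9 of 10 pluripotency markers fell. Which cell types these markers came from was not tested. Some lists share a gene: Pdgfra is also a fibroblast and stellate marker below, besides extraembryonic endoderm. Hand1 is both a trophoblast and a mesoderm marker. Nanog read 5.08, 5.09 and 7.12 in ES_HLC, against 12.16, 12.35, 12.04 and 12.27 in mESC. Endothelial and macrophage markers rose in Ad_Hep against mESC for 6 of 8 genes in each list, and 1 fell in each (Pecam1 and Cd68).

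ES_HLC replicate 1 stood apart in the Hox genes and in markers of connective tissue. The Hox calls that use ES_HLC, and the counts of most other lists, are therefore given with and without it. It held the highest of the 3 ES_HLC values for 24 of 36 members, where it did so for 31.3% of all genes. Summarised as a mean level over 16 fibroblast and stellate cell markers, the ES_HLC arrays read 8.89, 7.81 and 7.15, against 5.04, 5.04, 4.95 and 5.09 on the mESC arrays. Of those 16 markers, 13 rose in ES_HLC and 13 were highest in its replicate 1, and Ad_Hep read 5.68, 5.61 and 5.51. Among 12 mesoderm markers, 9 were highest in ES_HLC replicate 1, and their mean level was 6.52, 5.74 and 5.63 in ES_HLC. Ad_Hep read 5.15, 5.30 and 5.33 and mESC 5.18, 5.18, 5.24 and 5.31 for the same list. Of these 12, 4 rose and 1 fell in ES_HLC against mESC. Without ES_HLC replicate 1, 9 of the 16 fibroblast and stellate markers rose and 0 fell, and of the 12 mesoderm markers 1 rose and 1 fell. The part of these markers in the Hox results was not tested. As RNA came from whole samples, fewer cells of a type and less RNA per cell cannot be told apart.

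Sequences are shown for promoters of Hox genes that were high together in ES_HLC replicate 1, with that of a neighbour that was not. RefSeq (GRCm38.p6) gave 22 promoter sequences for 20 of the 36 members, each of 300 bases that span a start site. CpG pairs are in capitals, since CpG-dense promoters are where Polycomb complexes bind in embryonic stem cells. Hoxa13 (chr6:52260831-52261130, minus strand) and Hoxd13 (chr2:74667975-74668274, plus strand) are the last genes of HoxA and HoxD and pattern the digits, hindgut and genital tract. Hoxd10 (chr2:74691641-74691940, plus strand) patterns the lumbar region and hindlimb, and Hoxd9 (chr2:74697513-74697812, plus strand) lies next to it.
Hoxa13: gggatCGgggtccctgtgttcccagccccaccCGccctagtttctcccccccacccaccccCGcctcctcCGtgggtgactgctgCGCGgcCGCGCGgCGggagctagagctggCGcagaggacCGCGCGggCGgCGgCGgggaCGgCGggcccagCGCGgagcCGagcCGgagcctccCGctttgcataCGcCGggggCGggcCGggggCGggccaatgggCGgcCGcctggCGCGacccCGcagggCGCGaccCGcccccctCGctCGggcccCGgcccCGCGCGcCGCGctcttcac
Hoxd13: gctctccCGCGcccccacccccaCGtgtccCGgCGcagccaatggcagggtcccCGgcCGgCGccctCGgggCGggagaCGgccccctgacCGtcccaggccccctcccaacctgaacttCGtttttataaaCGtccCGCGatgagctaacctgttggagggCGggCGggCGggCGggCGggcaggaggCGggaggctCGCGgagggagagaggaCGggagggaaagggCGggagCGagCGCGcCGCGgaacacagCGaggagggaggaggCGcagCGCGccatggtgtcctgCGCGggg
Hoxd10: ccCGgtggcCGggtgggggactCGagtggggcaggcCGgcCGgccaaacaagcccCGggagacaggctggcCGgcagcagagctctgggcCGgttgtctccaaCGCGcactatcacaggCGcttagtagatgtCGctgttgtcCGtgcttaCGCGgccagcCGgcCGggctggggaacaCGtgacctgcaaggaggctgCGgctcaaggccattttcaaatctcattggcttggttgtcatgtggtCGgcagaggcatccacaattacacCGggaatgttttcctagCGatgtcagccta
Hoxd9: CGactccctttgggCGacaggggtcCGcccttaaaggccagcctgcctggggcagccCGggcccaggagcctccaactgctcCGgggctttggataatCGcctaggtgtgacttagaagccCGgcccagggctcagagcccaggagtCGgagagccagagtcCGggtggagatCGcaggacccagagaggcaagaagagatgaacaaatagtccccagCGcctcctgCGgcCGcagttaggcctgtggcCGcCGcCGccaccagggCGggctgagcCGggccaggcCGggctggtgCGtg
The windows hold 45 CpG pairs for Hoxa13, 37 for Hoxd13, 22 for Hoxd10 and 20 for Hoxd9. Hox promoters in the table held 4 to 45 with a median of 17, and all 32851 promoters had a median of 7 and quartiles of 3 and 20. Hoxa13 thus stood at the 98.1 percentile of all promoters, Hoxd13 at 94.4, Hoxd10 at 76.9 and Hoxd9 at 73.5. Also high in ES_HLC replicate 1, Hoxd11 had windows at 31.4 and 81.6 and Hoxa10 at 75.2 and 60.4. Hoxa5 and Hoxd1, which were not high there, both stood at 87.1. A link between CpG count and level was not tested. Read on both strands, the motif CCAAT was found in 14 of the 22 Hox windows and in 37.4% of all promoters, TATAAA in 3 of 22 and 13.6%, and the nuclear receptor half-site AGGTCA in 6 of 22 and 16.3%. These are matches of letters and say nothing of binding.

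**Figure D1:**
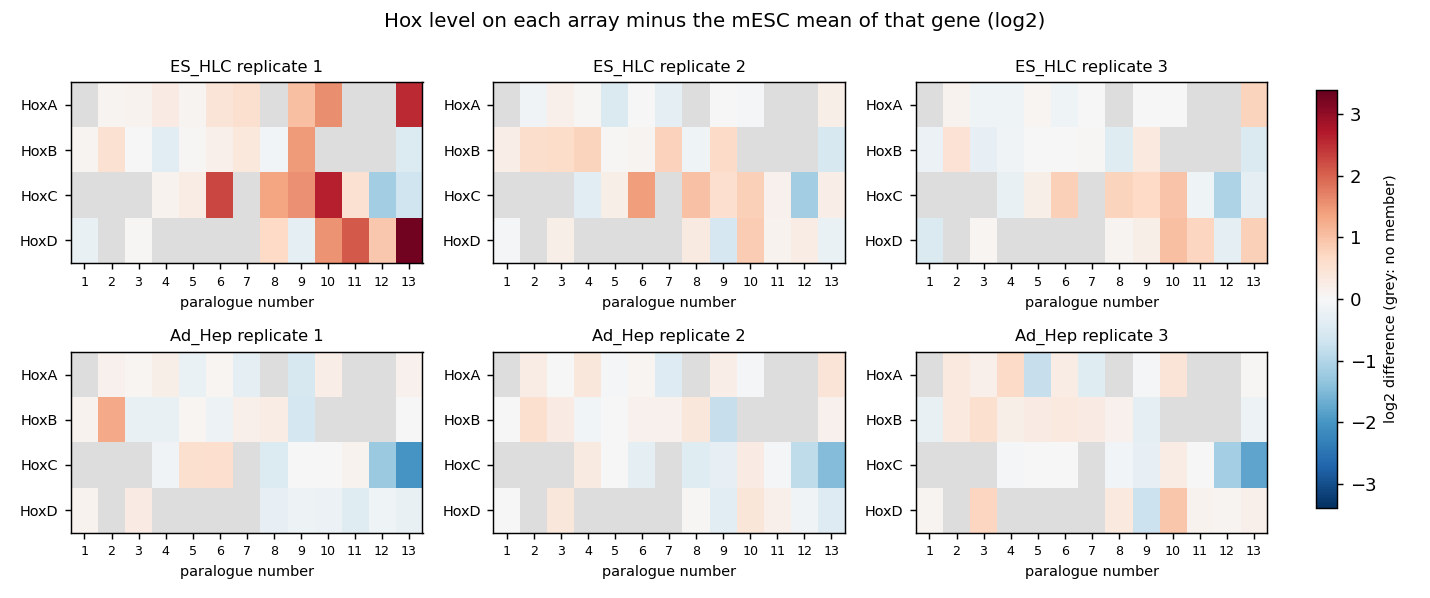
Level of each of the 36 Hox genes on each ES_HLC array (top row) and Ad_Hep array (bottom row) minus the mean of that gene over the 4 mESC arrays, in log2 units, by cluster (rows) and paralogue number (columns); grey cells hold no member. ES_HLC replicate 1 is dark red at Hoxa13, Hoxd13 and Hoxd11 and at Hoxc6 and Hoxc10, while Ad_Hep is blue at Hoxc12 and Hoxc13.

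Hepatocyte-like cells were set against the embryonic stem cells they were made from. In ES_HLC 5 members rose against mESC (Hoxc6, Hoxc10, Hoxa13, Hoxd10 and Hoxc8) and 1 fell (Hoxc12). A call needed an adjusted p under 0.05 in limma and a log2 difference of at least 1. The 5 that rose are 13.9% of the members, where 8.61% of all genes rose. The 1 that fell is 2.78%, where 7.35% of all genes fell. Together 6 of 36 (16.7%) were called, against 16% of all genes, so the share of Hox genes that changed was close to that of genes at large. Every ES_HLC array lay above every mESC array for 8 members (22.2%, against 17.2% of all genes) and below for 2 (5.56%, against 17.5%). Without ES_HLC replicate 1, 2 of 36 (5.56%) were called, Hoxc6 and Hoxc12, against 16.6% of all genes.

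Among the central genes, which pattern the trunk, 2 of 11 rose, both of HoxC. Hoxc6, used at the level of the forelimb and thorax, read 6.54, 5.68 and 5.06 in ES_HLC, against 3.80, 4.60, 4.22 and 4.44 in mESC. Every ES_HLC array lay above every mESC array, with a log2 difference of 1.50 ± 0.32 (SE, limma adjusted p = 0.00332). Hoxc6 was called under all 16 alternatives that tested it, and without ES_HLC replicate 1 the difference was 1.11 (limma adjusted p = 0.0129). Hoxc8, which acts in thoracic vertebrae and limb motor neurons, read 5.83, 5.48 and 5.25 in ES_HLC, against 4.22, 5.03, 4.39 and 4.32 in mESC. The groups did not overlap and differed by 1.03 ± 0.22 (SE, limma adjusted p = 0.00305). This difference stands just above the minimum of 1, and 8 of 16 alternatives ended the call. Over all 16 the difference was 0.87 to 1.21, the lowest without ES_HLC replicate 1.

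Of the 15 posterior genes (paralogues 9 to 13), 3 rose and 1 fell. Hoxc10, a gene of the lumbar region and hindlimb motor neurons, read 7.71, 5.88 and 6.03 in ES_HLC, against 4.95, 5.29, 4.77 and 5.25 in mESC. The ES_HLC arrays all lay above the mESC arrays, and the difference was 1.48 ± 0.35 (SE, limma adjusted p = 0.00669), a 2.78-fold change. Without ES_HLC replicate 1 it was 0.89 (limma adjusted p = 0.00513), below the minimum. Hoxd10 read 6.35, 5.70 and 5.86 in ES_HLC, against 5.05, 4.57, 4.85 and 4.87 in mESC. Again no array overlapped, with a difference of 1.13 ± 0.25 (SE, limma adjusted p = 0.00395) that was 0.94 without ES_HLC replicate 1. Hoxa13 read 7.29, 4.95 and 5.49 in ES_HLC, against 4.84, 4.58, 4.64 and 4.92 in mESC. Its ES_HLC replicate 2 lay just above the highest mESC array. The difference of 1.16 ± 0.41 (SE, limma adjusted p = 0.0493) lost its call under 10 of 17 alternatives. The limma adjusted p ran from 0.00659 (without ES_HLC replicate 2) to 0.124 over all 17, and the difference was 0.47 without ES_HLC replicate 1.

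Several posterior genes moved with the same array and did not pass. Hoxd13 read 8.10, 4.60 and 5.62 in ES_HLC, against 4.82, 5.25, 4.25 and 4.94 in mESC. Its replicate 2 lay within the mESC range and its replicate 1 at 3.28 above the mESC mean, so that the difference of 1.29 ± 0.60 (SE) had a limma adjusted p of 0.137. It was 0.30 without ES_HLC replicate 1, and without replicate 2 it was 2.05 with a limma adjusted p of 0.0127. Hoxd11, which shapes the forearm and the kidney, read 6.63, 4.66 and 5.29 in ES_HLC, against 4.38, 4.46, 4.48 and 4.85 in mESC. The groups overlapped and the difference was 0.98 ± 0.36 (SE, limma adjusted p = 0.0597). Hoxa10 read 5.79, 4.15 and 4.24 in ES_HLC, against 4.20, 4.12, 4.39 and 4.16 in mESC, so that replicate 1 alone lay above the mESC range. The annotation gives more than 1 transcript cluster to both Hoxa11 and its antisense gene Hoxa11os. One read 6.69, 4.91 and 5.58 in ES_HLC, against 4.76, 4.75, 4.33 and 4.35 in mESC. It differed by 1.18 ± 0.34 (SE, limma adjusted p over all 41345 clusters = 0.0289), and by 0.69 without ES_HLC replicate 1 (limma adjusted p = 0.0735). Another read 5.08, 4.42 and 4.73 in ES_HLC, against 3.75, 4.24, 4.32 and 4.18 in mESC. Its difference of 0.62 ± 0.195 (SE, limma adjusted p over all 41345 clusters = 0.0459) was under the minimum. Hoxd10 and Hoxd11 overlap in RefSeq and may share signal.

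Taken array by array, the posterior genes had a median level 1.45 above their mESC mean in ES_HLC replicate 1, 0.14 in replicate 2 and 0.19 in replicate 3. For the 10 anterior genes (paralogues 1 to 4) the same medians were 0.10, 0.20 and -0.15. In ES_HLC replicate 1, 9 of 36 members (25%) lay at least 1 above the highest mESC array, against 6.31% of all genes, and 8 of these 9 were posterior. In replicate 2 this held for 1 member (Hoxc6; 2.78%, against 6.7% of all genes) and in replicate 3 for 0 members, against 6.97% of all genes. On the Ad_Hep arrays it held for 1, 0 and 0 members, against 10.1%, 9.13% and 8.99% of all genes. The 9 were Hoxa10, Hoxa13, Hoxb9, Hoxc6, Hoxc9, Hoxc10, Hoxd10, Hoxd11 and Hoxd13, which come from all 4 clusters. The median difference between the groups was 0.51 over the posterior genes, 0.09 over the central and 0.06 over the anterior genes, where all genes had -0.01. Without ES_HLC replicate 1 the posterior median was 0.0002, and without replicate 2 or 3 it was 0.80 or 0.75. The posterior median was thus high with that array and near 0 without it. The 8 members that lay above every mESC array on all 3 ES_HLC arrays were Hoxa13, Hoxb2, Hoxb9, Hoxc6, Hoxc8, Hoxc9, Hoxc10 and Hoxd10.

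**Figure D2:**
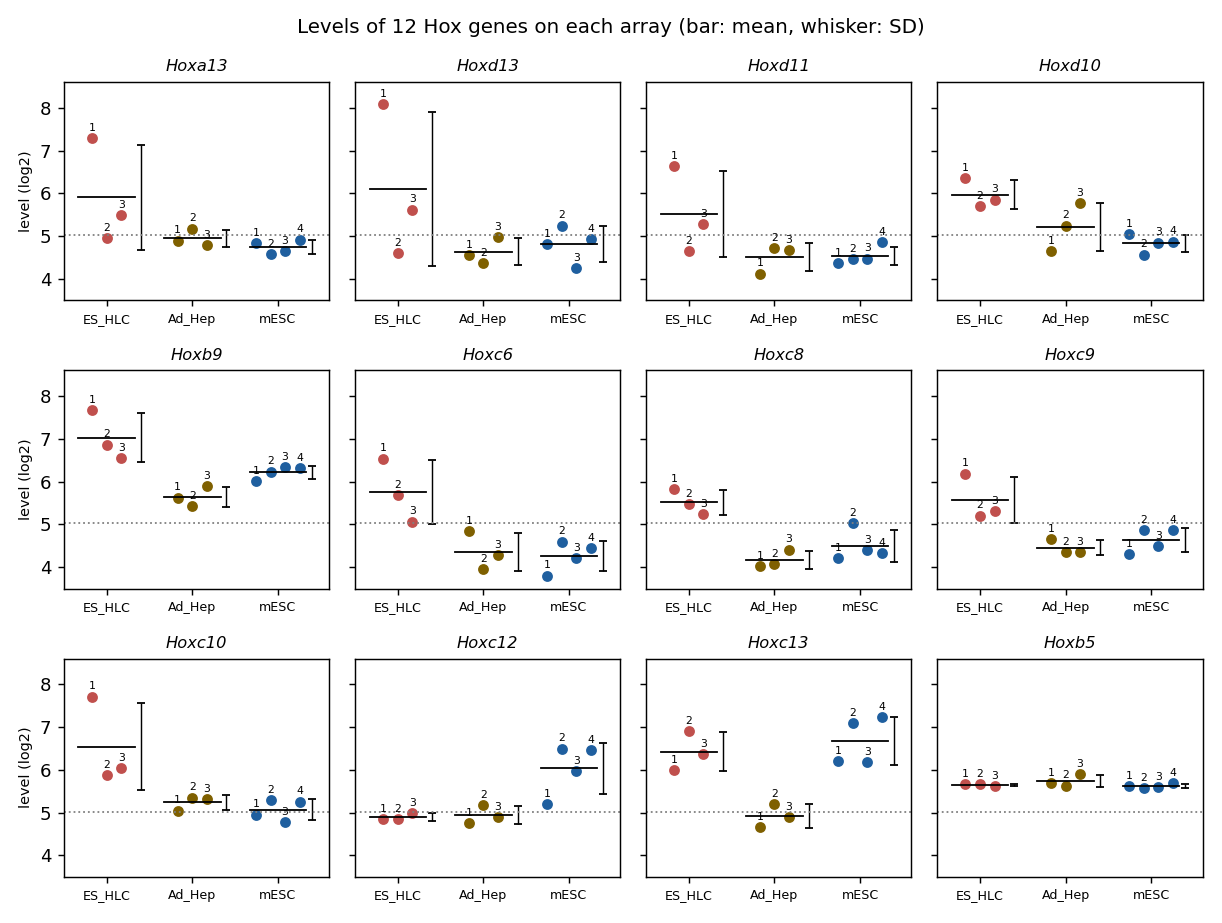
Log2 level of 12 Hox genes on each array (points, numbered by replicate) in ES_HLC, Ad_Hep and mESC, with the mean (bar), the SD (whisker) and the background level of 5.02 (dotted). ES_HLC replicate 1 is the top point for Hoxa13, Hoxd13, Hoxd11 and Hoxc10, and Hoxc12 and Hoxc13 are high in mESC. The kept transcript cluster of Hoxb5 is level across the groups.

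At the end of the HoxC cluster, Hoxc12 and Hoxc13 were above the background level on every mESC array. Hoxc12 read 4.84, 4.84 and 4.99 in ES_HLC, against 5.20, 6.49, 5.97 and 6.46 in mESC. No arrays overlapped, and Hoxc12 fell by 1.14 ± 0.27 on the log2 scale (SE, limma adjusted p = 0.00595), to below the background level on all 3 ES_HLC arrays. The call was lost when mESC replicate 2 or 4 was left out, since the difference then came just under the minimum (-0.99 without replicate 2). Hoxc13, a regulator of hair and nail keratins, read 6.0, 6.91 and 6.38 in ES_HLC, against 6.20, 7.09, 6.18 and 7.23 in mESC. These overlapped and differed by -0.25 ± 0.30 (SE, limma adjusted p = 0.62). In mESC, replicates 2 and 4 read higher than replicates 1 and 3 for both genes.

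Adult hepatocytes were then set against embryonic stem cells. In Ad_Hep 2 members fell against mESC, Hoxc12 and Hoxc13, and 0 rose. The 2 are 5.56% of the members, against 15.6% of all genes that fell. Called higher were 11% of all genes, and called either way 26.6%. At an unadjusted p under 0.05 in limma, 3 members (8.33%) were higher and 3 lower, where 21.7% of all genes were higher and 25.4% lower. The difference between these shares was not tested.

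Hoxc13 read 4.66, 5.21 and 4.89 in Ad_Hep, against the 4 mESC values above. It fell by 1.76 ± 0.30 on the log2 scale (SE, limma adjusted p = 0.000299), a 3.38-fold change, with no overlap, and was called under all 17 alternatives. Hoxc12 read 4.76, 5.17 and 4.89 in Ad_Hep and fell by 1.09 ± 0.27 (SE, limma adjusted p = 0.00491), all Ad_Hep arrays lying below all mESC arrays. This call too was lost without mESC replicate 2 (-0.94) or replicate 4 (-0.95). Among anterior genes, which pattern the hindbrain and neck, Hoxb2 read 5.19, 4.46 and 4.23 in Ad_Hep, against 3.91, 4.10, 3.76 and 3.86 in mESC. The Ad_Hep arrays lay above the mESC arrays by 0.72 ± 0.21 (SE, limma adjusted p = 0.0131), under the minimum difference and mostly under the background level. Hoxd3 differed by 0.47 ± 0.17 (SE, limma adjusted p = 0.0394), likewise below the minimum. For Hoxb2 the ES_HLC arrays also lay above all mESC arrays, by 0.53 ± 0.21 (SE, limma adjusted p = 0.0772, not called), and overlapped with Ad_Hep. Every Ad_Hep array lay above every mESC array for 4 members (11.1%, against 22.4% of all genes) and below for 3 (8.33%, against 24.5%). The median difference was 0.14 over anterior, 0.10 over central and -0.05 over posterior genes, and 0.05 over all genes.

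**Figure D3:**
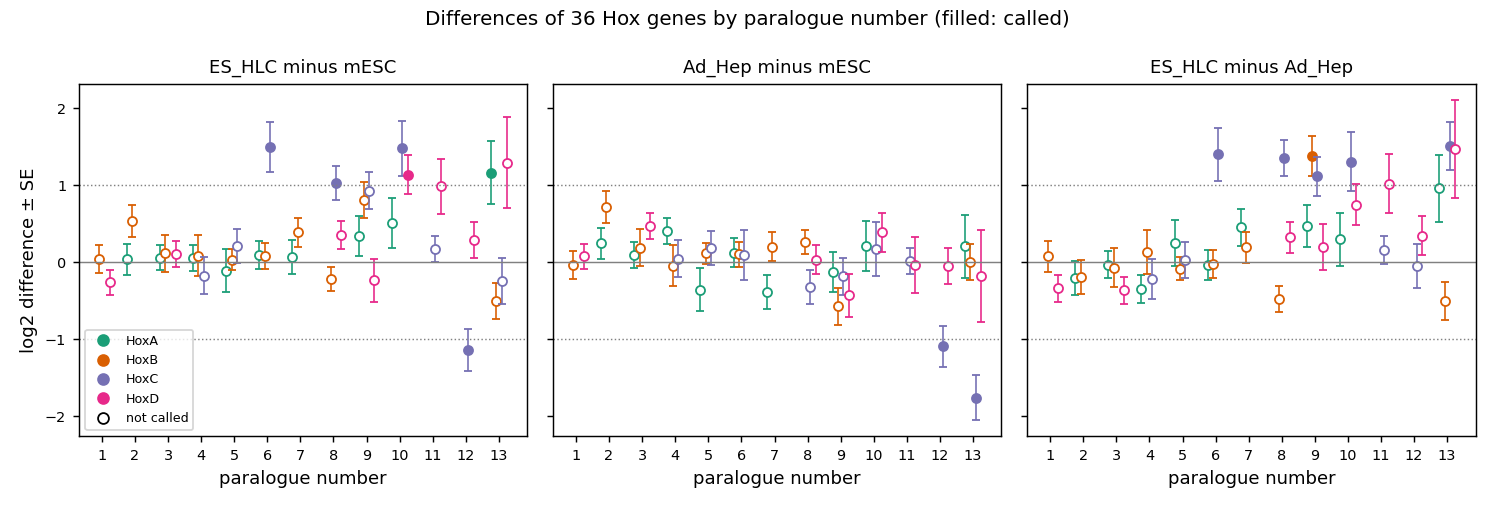
Log2 difference ± SE of each of the 36 Hox genes in the 3 comparisons, by paralogue number, coloured by cluster; filled points are called and dotted lines mark a difference of 1. Called points lie at paralogue 6 and above in all 3 panels, and none lies above 1 between Ad_Hep and mESC.

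The hepatocyte-like cells were finally compared with the adult hepatocytes they are meant to resemble. In ES_HLC 6 members rose against Ad_Hep (Hoxc13, Hoxc6, Hoxb9, Hoxc8, Hoxc10 and Hoxc9) and 0 fell. The 6 are 16.7% of the members, against 13.9% of all genes that rose and 9.12% that fell. At an unadjusted p under 0.05 in limma, 10 members (27.8%) were higher and 1 (2.78%) lower, where 24.8% of all genes were higher and 18.7% lower. Either way 6 of 36 were called, against 23% of all genes. The same 6 lay above every Ad_Hep array on every ES_HLC array (24.3% of all genes did so), and 5 lay below (13.9%, against 20.9%). This comparison shares its arrays with the other 2, so the 3 sets of values are not independent.

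HoxC supplied 5 of the 6. Its 9 members had a median difference of 1.11, beside 0.25 for HoxA, -0.05 for HoxB and 0.33 for HoxD, and -0.04 over all genes. Hoxc13 differed by 1.51 ± 0.32 (SE, limma adjusted p = 0.00211), a 2.85-fold change, with all ES_HLC arrays above all Ad_Hep arrays. Here ES_HLC stayed at the mESC level while Ad_Hep lay below it. Hoxc6 read 4.84, 3.96 and 4.29 in Ad_Hep, below all 3 ES_HLC values, and differed by 1.40 ± 0.35 (SE, limma adjusted p = 0.006). Hoxc8 read 4.02, 4.07 and 4.41 in Ad_Hep and differed by 1.35 ± 0.23 (SE, limma adjusted p = 0.000487).

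Hoxc9, which sets thoracic motor neuron identity, read 6.19, 5.21 and 5.31 in ES_HLC, 4.66, 4.35 and 4.35 in Ad_Hep and 4.30, 4.87, 4.50 and 4.87 in mESC. ES_HLC lay above both other groups without overlap, by 1.11 ± 0.26 against Ad_Hep (SE, limma adjusted p = 0.00413) and by 0.93 ± 0.24 against mESC (SE, limma adjusted p = 0.0107), the second under the minimum and 0.62 without ES_HLC replicate 1. Hoxc10 read 5.04, 5.35 and 5.32 in Ad_Hep, and ES_HLC lay higher by 1.31 ± 0.38 (SE, limma adjusted p = 0.0159). Without ES_HLC replicate 1 the differences from Ad_Hep were 0.80 for Hoxc9 and 0.72 for Hoxc10, neither called, and 4 members remained, which are 11.1%, against 23.2% of all genes called. Those 4 were Hoxb9, Hoxc6, Hoxc8 and Hoxc13. Leaving out Ad_Hep replicate 1 also ended the call of Hoxc10.

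Hoxb9, a thoracic gene, read 7.67, 6.87 and 6.55 in ES_HLC, 5.62, 5.43 and 5.90 in Ad_Hep and 6.0, 6.24, 6.33 and 6.31 in mESC. The 3 groups were separate, in the order ES_HLC, mESC, Ad_Hep from high to low. ES_HLC lay above Ad_Hep by 1.38 ± 0.25 (SE, limma adjusted p = 0.000816), 2.60-fold, and above mESC by 0.81 ± 0.24 (SE, limma adjusted p = 0.0218), under the minimum. These were 1.06 (limma adjusted p = 0.00155) and 0.49 (limma adjusted p = 0.0927) without ES_HLC replicate 1. The limb genes Hoxd13, Hoxd11 and Hoxa13, high in ES_HLC replicate 1, did not pass against Ad_Hep. Their differences were 1.47 ± 0.64 for Hoxd13 (SE, limma adjusted p = 0.0951), 1.02 ± 0.39 for Hoxd11 (SE, limma adjusted p = 0.0565) and 0.96 ± 0.44 for Hoxa13 (SE, limma adjusted p = 0.111). Hoxd10 differed by 0.75 ± 0.27 (SE, limma adjusted p = 0.0451), under the minimum, its Ad_Hep arrays reading 4.65, 5.25 and 5.77. Over the posterior genes the median difference from Ad_Hep was 0.75, and 0.27 without ES_HLC replicate 1.

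Of the 10 anterior genes, 0 were called in each of the 3 comparisons, where 16%, 26.6% and 23% of all genes were. At an unadjusted p under 0.05 in limma 1 was higher in ES_HLC against mESC, where 18.6% of all genes were higher and 18.3% lower. In Ad_Hep against mESC 3 were higher, where 21.7% of all genes were higher and 25.4% lower. Between ES_HLC and Ad_Hep 0 differed, where 24.8% of all genes were higher and 18.7% lower in ES_HLC. The difference between these shares was not tested. Hoxa4 read 6.23, 5.99 and 5.79 in ES_HLC, 6.13, 6.33 and 6.59 in Ad_Hep and 5.89, 6.13, 5.76 and 6.01 in mESC, the groups overlapping between ES_HLC and each of the others. Hoxb5, a central gene with 2 transcript clusters, read 5.66, 5.66 and 5.62 in ES_HLC, 5.68, 5.63 and 5.89 in Ad_Hep and 5.61, 5.57, 5.60 and 5.69 in mESC on the kept cluster. Its other cluster read 5.29, 5.17 and 4.74 in ES_HLC, 5.38, 5.55 and 5.55 in Ad_Hep and 4.96, 4.99, 5.05 and 5.11 in mESC. There every Ad_Hep array lay above all other arrays, by 0.47 against mESC (limma adjusted p over all 41345 clusters = 0.0506), which was not called. Hoxd9, beside Hoxd10, read 3.96, 3.74 and 4.48 in ES_HLC, 4.13, 3.91 and 3.56 in Ad_Hep and 3.68, 4.97, 4.14 and 4.39 in mESC. All of its values lay below the background level.

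Of 8 measured TALE cofactors, the partners of the Hox proteins, 4 rose in ES_HLC against mESC and 0 fell. Of all genes, 8.61% rose and 7.35% fell. The median difference of the 8 was 0.98, where all genes had -0.01. At an unadjusted p under 0.05 in limma, 5 were higher and 1 lower, where 18.6% of all genes were higher and 18.3% lower. The lower one was Pknox1 (-0.69, limma adjusted p = 0.0178), not called, with every ES_HLC array below every mESC array. Meis1 read 9.45, 8.46 and 7.11 in ES_HLC, 6.15, 5.95 and 6.16 in Ad_Hep and 4.86, 4.88, 4.99 and 5.22 in mESC. All 3 groups were apart, by 3.35 ± 0.39 between ES_HLC and mESC (SE, limma adjusted p = 3.53e-05) and by 1.10 ± 0.39 between Ad_Hep and mESC (SE, limma adjusted p = 0.0384). Meis2 read 10.06, 8.27 and 8.64 in ES_HLC, 6.65, 5.79 and 6.22 in Ad_Hep and 5.50, 7.33, 6.34 and 7.26 in mESC. ES_HLC lay above both groups, with 2.38 ± 0.47 against mESC (SE, limma adjusted p = 0.00198). Meis3 (1.24) and Pbx2 (1.18) also rose and differed little between the ES_HLC arrays. Against Ad_Hep, 6 of the 8 rose in ES_HLC and 0 fell, where 13.9% of all genes rose and 9.12% fell. The 6 were led by Meis2 (2.77), Meis1 (2.25), Pknox2 (1.43) and Meis3 (1.41). The counts stayed at 4 and 6 without ES_HLC replicate 1, with Meis1 at 2.80 and Meis2 at 1.84 against mESC. In Ad_Hep against mESC, Meis1 rose and Pknox2 fell by 1.96, where 11% of all genes rose and 15.6% fell. At an unadjusted p under 0.05 in limma, 21.7% of all genes were higher and 25.4% lower in that comparison. In ES_HLC against Ad_Hep these were 24.8% and 18.7%. The shares of all genes given here also stand beside the counts of the lists below.

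**Figure D4:**
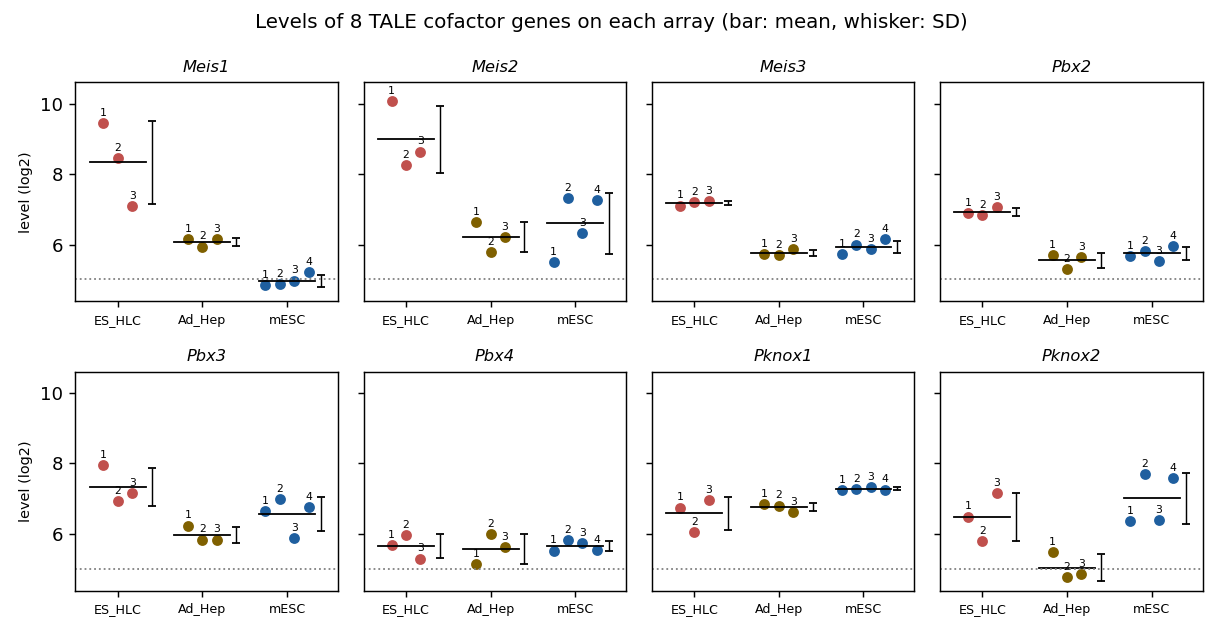
Log2 level of 8 TALE cofactor genes on each array (points, numbered by replicate) in ES_HLC, Ad_Hep and mESC, with the mean (bar), the SD (whisker) and the background level of 5.02 (dotted). Meis1, Meis2, Meis3 and Pbx2 lie higher in ES_HLC than in both other groups, with Meis1 at 7.11 to 9.45 in ES_HLC.

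Of 10 measured genes that act upstream of the clusters, 1 rose and 1 fell in ES_HLC against mESC, where 16% of all genes were called. Cdx1, a caudal factor that binds within the clusters, read 4.44, 4.58 and 4.77 in ES_HLC, 5.11, 5.20 and 5.22 in Ad_Hep and 6.06, 8.21, 6.81 and 7.95 in mESC. It fell by 2.66 ± 0.40 in ES_HLC (SE, limma adjusted p = 0.000274) and by 2.08 ± 0.40 in Ad_Hep (SE, limma adjusted p = 0.000896), both against mESC. Within mESC, replicates 2 and 4 were the higher ones, as for Hoxc12 and Hoxc13, but also for Meis2, Pknox2, Calcoco2 and Dhrs3. For Suz12 and Eed these replicates were the lower ones. The split is thus not particular to Cdx1 and these Hox genes. Gdf11, a secreted factor of the TGF-beta family that sets the trunk to tail transition, read 7.23, 6.47 and 7.63 in ES_HLC, 4.36, 5.31 and 4.95 in Ad_Hep and 5.23, 5.86, 5.46 and 5.81 in mESC. It rose by 1.52 ± 0.29 in ES_HLC against mESC (SE, limma adjusted p = 0.00143) and by 2.24 ± 0.31 against Ad_Hep (SE, limma adjusted p = 7.77e-05). Of the 10, 1 rose and 2 fell against mESC without ES_HLC replicate 1, with Gdf11 at 1.46.

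In the retinoic acid pathway, 5 of 18 genes rose and 2 fell in ES_HLC against mESC, where 8.61% of all genes rose and 7.35% fell. Rdh10, which makes retinaldehyde from retinol, rose by 3.72 and Rarb, a receptor that retinoic acid itself induces, by 2.80. Rarb read 7.84, 6.68 and 6.99 in ES_HLC, 5.67, 6.29 and 6.12 in Ad_Hep and 4.26, 4.49, 3.68 and 5.03 in mESC, the 3 groups lying apart. Stra8, a meiosis gene that retinoic acid induces, fell by 2.0, and Aldh1a2, the embryonic enzyme for the last step of synthesis, by 1.84. In Ad_Hep against mESC 7 rose and 4 fell, with Aldh1a1 (6.49), Rdh10 (3.20), Dhrs3 (3.20) and Rxra (3.18) leading. In ES_HLC against Ad_Hep 4 rose and 5 fell, among them Aldh1a1 (-5.05), Dhrs3 (-2.37), Rxra (-2.33) and Crabp2 (1.78). Leaving out ES_HLC replicate 1, 6 rose and 2 fell against mESC, and 2 rose and 5 fell against Ad_Hep, where Rarb was then at 0.81.

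Polycomb complexes silence the clusters and Trithorax proteins keep them open. Of 23 such genes, with both kinds pooled, 1 rose and 8 fell in ES_HLC against mESC, where 16% of all genes were called. Their median was -0.37, and the counts were the same without ES_HLC replicate 1. Counts and medians of this list do not separate silencers from activators. At an unadjusted p under 0.05 in limma, 5 were higher and 11 lower in that comparison with all arrays. In Ad_Hep against mESC 0 rose and 12 fell, with a median of -1.46, and 1 was higher and 15 lower at that unadjusted p. Phc1, a subunit of Polycomb complex PRC1, read 7.54, 6.82 and 7.37 in ES_HLC, 5.18, 5.92 and 5.69 in Ad_Hep and 9.98, 9.84, 9.60 and 9.76 in mESC. The groups were fully separate, in the order mESC, ES_HLC, Ad_Hep. Also lower in ES_HLC than mESC were Wdr5 (-1.98), Cbx7 (-1.94) and the PRC2 subunit Suz12 (-1.62), and the gene that rose was Phc3 (1.16), named here after its value was seen. Ezh2, the methyltransferase of PRC2, fell by 3.29 in Ad_Hep against mESC, beside Mtf2 (-2.86) and Suz12 (-2.75). In ES_HLC against Ad_Hep 10 rose and 0 fell, led by Ezh2 (2.52), Kdm6b (2.27), Rnf2 (1.82) and Mtf2 (1.77), with the same counts without ES_HLC replicate 1. In that comparison 13 were higher and 2 lower at an unadjusted p under 0.05 in limma.

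Relatives and neighbours of the clusters were read in the same way. Of 8 ParaHox, Evx, Mnx and Meox genes, 0 were called in any comparison. Over all genes 16% were called in ES_HLC against mESC, 26.6% in Ad_Hep against mESC and 23% in ES_HLC against Ad_Hep. At an unadjusted p under 0.05 in limma 1 of the 8 was lower in ES_HLC against mESC (18.3% of all genes were). In the other comparisons 0 differed. Of 18 genes that flank the clusters, 3 fell in ES_HLC against mESC, led by Calcoco2 (-6.07) beside HoxB, and 3 fell and 1 rose without ES_HLC replicate 1. In Ad_Hep against mESC 1 rose, Hibadh beside HoxA (2.34), and 4 fell. Among 7 noncoding genes within the clusters, Mir196a-1 alone was called. It lies in HoxB (chr11:96265187-96265208, plus strand, GRCm38.p6 for the mature arm), and the mature miR-196a that it encodes with Mir196a-2 targets Hoxb8 and other Hox mRNAs in the mouse. Its seed (bases 2 to 8) is in capitals.
miR-196a-5p: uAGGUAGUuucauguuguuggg
The array reads the locus rather than the mature RNA. Mir196a-1 read 6.06, 6.02 and 5.64 in ES_HLC, 4.71, 4.70 and 5.19 in Ad_Hep and 6.24, 6.16, 5.88 and 5.74 in mESC. ES_HLC and mESC overlapped, and both lay above Ad_Hep, with -1.14 ± 0.19 for Ad_Hep against mESC (SE, limma adjusted p = 0.000288) and 1.04 ± 0.20 for ES_HLC against Ad_Hep (SE, limma adjusted p = 0.00129), the second 0.97 and not called without ES_HLC replicate 1. Mir196a-2 went the other way, at 3.63, 4.17 and 4.02 in ES_HLC and 4.28, 4.54 and 5.14 in Ad_Hep. The groups did not overlap and differed by -0.71 ± 0.245 (SE, limma adjusted p = 0.037), under the minimum and mostly below the background level. Hoxb8, a target of miR-196a, read 4.68, 4.63 and 4.36 in ES_HLC, 5.02, 5.16 and 4.92 in Ad_Hep and 4.56, 4.81, 4.82 and 4.91 in mESC. Its ES_HLC arrays lay below all Ad_Hep arrays, by -0.48 ± 0.16 (SE, limma adjusted p = 0.0383), under the minimum, and near the background level. A link between these loci and Hoxb8 was not tested.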

How the data were processed

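RNA was hybridised to mouse gene arrays of Affymetrix. The deposited values are log2 levels of 41345 transcript clusters on 10 arrays. Per the submitters' processing notes, the tools were Transcriptome Analysis Console, RMA, R 3.3.1 and oligo 1.38.0, with no role given, and the genome build is not given in the sources used here. Values ran from 1.27 to 13.58. Arrays were grouped by the labels. No scanner files were used, so no probe could be tested against its own background. Precision is limited by how few arrays there are.

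In the platform annotation 23521 clusters had 1 symbol, 1814 had several and 16010 had none. Per symbol the cluster with the highest mean was kept, which left 22180 genes. Group means of all 10 arrays were fitted with limma 3.58.1 (R 4.3.3), and its moderated 2-sided tests were adjusted by Benjamini-Hochberg over all genes. Calls needed an adjusted p under 0.05 with a log2 difference of at least 1, and only called genes are said to have risen or fallen. On simulated data of 22180 genes, 100 genes were shifted by 1.5 and 100 others by 3. Of those shifted by 1.5, 89%, 84% and 81% were called in ES_HLC against mESC, Ad_Hep against mESC and ES_HLC against Ad_Hep. There were 6, 5 and 7 false calls among the genes not shifted. The simulated noise was independent and normal, without an array that stood apart, so these counts do not give the error of the Hox calls.

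Members called in at least 1 comparison are named with all values, and at most 4 called genes per other list and comparison. The members, lists and tests were chosen with earlier results of these data known. Alternatives were other normalizations, filters, variance models, samples in the fit, a replicate block, and each array left out.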

Additional observations from a re-analysis of the deposited data

Results flagged for a closer look

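Single arrays far from the others of their group were sought in mESC, which has 4 arrays, by the gap to the nearest array over the whole range of the group, against Dixon's critical value for 4 samples. Chance flags about 1 in 20 groups, and 4.59% of all genes exceeded it here. None of the 36 Hox members did (0), while 3 of 91 other named genes and 2 of 8 shared or second Hox transcript clusters did. Cd68, a macrophage marker, read 9.17 in mESC replicate 1, against 9.62 to 9.69 on the other mESC arrays. Cdh5, an endothelial cadherin, read 5.03 in mESC replicate 2, against 5.44 to 5.45. Nr0b1, a pluripotency marker, read 10.99 in mESC replicate 3, against 10.82 to 10.83. The transcript cluster shared by Hoxb3 and Hoxb2 read 4.83 in mESC replicate 2, against 5.18 to 5.22, and the one shared by Hoxa3 and 5730446D14Rik read 5.31 there, against 5.65 to 5.70.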

How the results depend on the processing

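Counts of Hox genes called kept within 1.5 times their value in 44 cases and not in 6. In ES_HLC against mESC (6 called) the count ran from 2 to 9 when each array was left out in turn, with 2 without ES_HLC replicate 1. In Ad_Hep against mESC (2 called) it ran from 1 to 2, with 1 when mESC replicate 2 or 4 was left out, and was 4 with no minimum difference. In ES_HLC against Ad_Hep (6 called) it ran from 4 to 9, and was 3 when only genes above the background level were tested, since Hoxc6, Hoxc8 and Hoxc9 then left the test. Without ES_HLC replicate 1 the difference from mESC changed sign for Hoxa10, Hoxa9 and Hoxd12, none of them called in the fit of all arrays: leaving out each array gave -0.024 to 0.80 for Hoxa10, -0.013 to 0.51 for Hoxa9 and -0.029 to 0.59 for Hoxd12. The 3 fits of another normalization gave 4 members in ES_HLC against mESC, losing Hoxa13 and Hoxc8.

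Replicate numbers are shared between groups, but the deviations of 9 same-numbered pairs correlated at -0.185 to 0.137, with 2 over 0.1, so the numbers were not taken to pair the arrays. With the replicate block the counts were 4 in ES_HLC against mESC, 1 in Ad_Hep against mESC and 6 in ES_HLC against Ad_Hep. The block ended the call of Hoxc12 in both comparisons with mESC (just under the minimum in ES_HLC, -0.95 in Ad_Hep), and those of Hoxa13 and Hoxc8 in ES_HLC against mESC, where Hoxc9 was called. Many Hox genes lie near the background level, where a small true change would not be seen.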
